A study of Mus musculus with 8 samples.

Results

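Killer lectin receptors are C-type lectin-like proteins, known mainly from natural killer (NK) cells and cytotoxic T cells, and the 8 genes described here are Klrd1, Klrc1, Klrc2, Klre1, Klrk1, Klrb1c and Klrg1 with Hcst, the adaptor of one of these receptors, which is itself no lectin. They were chosen by name, as the rows carrying these symbols, with earlier results of these data known. They are 8 of the 28239 gene symbols in the count table. Naïve CD4+ T cells were taken from the spleens of wild-type (WT) and Alox15-/- mice by immunomagnetic negative selection, which removes other cells and leaves naïve CD4+ T cells untouched, and were differentiated towards regulatory T cells (Tregs) for 2 days. The medium of both groups held IL-2 at 100 U/ml, TGF-β at 5 ng/ml and 1 bead with antibodies to CD3 and CD28 for each cell, and the RNA was profiled by MACE-seq, which counts tags close to the 3′ ends of transcripts. There were 4 libraries labelled Alox15-/- and 4 labelled WT, all on the C57BL/6 background, and the question was how loss of Alox15, a lipoxygenase that makes lipid mediators, alters the transcripts of these cells. Mice of the study were female and male and 10 to 12 weeks old. The deletion was carried in the whole animal, and the WT mice came from Charles River and the Alox15-/- mice from The Jackson Laboratory, so genotype and supplier cannot be told apart. There were as many Alox15-/- mice as libraries with that label, per the study's description, and whether each WT library came from its own mouse is not given in the sources used here, so p-values measure the spread between these libraries.

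In background, CD94 (Klrd1) pairs on the cell surface with NKG2A (Klrc1), which carries inhibitory motifs, or with NKG2C (Klrc2), which signals for activation through the adaptor DAP12 (Tyrobp), and these pairs bind the non-classical MHC molecule Qa-1 (H2-T23). NKG2D (Klrk1) binds stress-induced ligands of the Raet1, H60 and Ulbp1 families and signals through DAP10 (Hcst) and, in the mouse, also through DAP12. Klrb1c encodes NK1.1, a marker of NK and NKT cells in C57BL/6 mice, Klre1 encodes a receptor that pairs with the products of Klri1 and Klri2, and KLRG1 (Klrg1) is an inhibitory receptor for cadherins that marks NK cells and terminally differentiated T cells, including a subset of effector Tregs.

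Libraries labelled Alox15-/- held 3723151 to 6952596 counts and WT libraries 4810125 to 9538962, so that 3 counts in a library stood for 0.303 to 0.814 CPM (counts scaled to library size). Alox15, the targeted gene, had 255 to 454 counts in the libraries labelled Alox15-/- and 12 to 77 in the WT libraries. After scaling these were 63.7 to 70.5 CPM against 1.88 to 9.02 CPM (log2 fold change 3.65, edgeR adjusted p = 1.08e-05). This runs against the label of a deletion, but whether the counted 3′ tags lie within the deleted part is not given in the sources used here, so the counts check nothing about the allele. The groups were taken from the labels, and whether the labels are right was not tested. Every direction given here depends on them. The summed CPM of 6 markers of CD4 T cells lay between 2000 and 2500 in the libraries labelled Alox15-/- and between 2270 and 2630 in WT, and that of 5 Treg markers between 1660 and 1820 and between 1750 and 1950. Within these sums Cd4 was lower in every library labelled Alox15-/- than in WT (log2 fold change -0.32, edgeR adjusted p = 0.357). Foxp3, the defining factor of Tregs, had a log2 fold change of -0.42 (edgeR adjusted p = 0.655). Its groups overlapped, at 71.7 to 114 CPM against 93.4 to 195 CPM, the highest value being that of WT replicate 3. Without the filter the edgeR adjusted p of Foxp3 was 0.0189, in a fit that gave each gene no spread of its own. Sums for markers of other blood cells differed more, in both directions. The sum of 6 erythroid genes was 907 to 3490 CPM in the libraries labelled Alox15-/- against 32.9 to 122 in WT, that of 6 mast cell and basophil genes 102 to 306 against 26.3 to 45.3, that of 10 myeloid genes 34.1 to 132 against 10.7 to 18.4, and that of 7 γδ T cell genes 78.1 to 142 against 27.1 to 44.8. Of the tested genes, edgeR called 5 of 5 erythroid, 6 of 6 mast cell and basophil and 3 of 5 myeloid genes, all higher. Over all genes tested, 1.05% were called higher. Several of these marker genes came through the filter only by the libraries labelled Alox15-/-. The sum of 5 B cell genes was on the lower side, with 5.55 to 7.56 CPM against 8.31 to 19.3 CPM. Of its 2 tested genes, Ms4a1, which encodes CD20, was called (log2 fold change -2.64, edgeR adjusted p = 0.00413), although it came through the filter only by the WT libraries, and Cd79b was not (0.11, edgeR adjusted p = 0.967). In bulk RNA, a change in the number of cells of a type and a change in the RNA per cell cannot be told apart.

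All of the genes except Hcst lie on mouse chromosome 6 (GRCm38, GENCODE M21), and 6 of these within the NK gene complex. Klre1 (ENSMUSG00000050241.8, chr6:129577905-129585827, plus strand), Klrd1 (ENSMUSG00000030165.16, chr6:129591782-129598775, plus strand), Klrk1 (ENSMUSG00000030149.15, chr6:129610323-129623864, minus strand), Klrc2 (ENSMUSG00000052736.15, chr6:129647496-129660689, minus strand) and Klrc1 (ENSMUSG00000030167.15, chr6:129666015-129678973, minus strand) are close neighbours, and Klrb1c (ENSMUSG00000030325.16, chr6:128778485-128789215, minus strand) lies further towards the start of the chromosome. Klrg1 (ENSMUSG00000030114.8, chr6:122270596-122282882, minus strand) is outside the complex, and Hcst (ENSMUSG00000064109.8) lies on chromosome 7 (chr7:30417712-30419854, minus strand). The 250 bases before the RefSeq start (GRCm38.p6) are shown for Klrc1, the gene with the largest fold change among the 4 that could be tested, for Klrc2, its near copy, and for Klrk1, which lies beside them and missed the threshold. Each is written 5′ to 3′ on the strand of its gene, which is minus for all 3, and capitals mark the letters TGTGGT, the core bound by RUNX factors, or their reverse complement.
Klrc1, chr6:129678974-129679223: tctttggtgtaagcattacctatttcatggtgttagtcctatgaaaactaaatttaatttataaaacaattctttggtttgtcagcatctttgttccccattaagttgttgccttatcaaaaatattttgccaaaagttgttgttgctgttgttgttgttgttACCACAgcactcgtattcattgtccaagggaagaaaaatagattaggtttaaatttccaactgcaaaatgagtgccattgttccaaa
Klrc2, chr6:129660597-129660846: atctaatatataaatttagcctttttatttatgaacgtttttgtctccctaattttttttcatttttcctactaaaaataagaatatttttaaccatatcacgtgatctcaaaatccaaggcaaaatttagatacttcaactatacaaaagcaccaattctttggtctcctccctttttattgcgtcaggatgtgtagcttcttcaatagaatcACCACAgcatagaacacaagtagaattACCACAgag
Klrk1, chr6:129623865-129624114: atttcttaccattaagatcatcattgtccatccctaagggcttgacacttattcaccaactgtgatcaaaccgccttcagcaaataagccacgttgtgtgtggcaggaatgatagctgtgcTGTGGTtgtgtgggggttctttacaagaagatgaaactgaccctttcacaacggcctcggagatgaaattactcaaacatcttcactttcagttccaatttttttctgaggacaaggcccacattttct
The RUNX letters began 87 bases before the start of Klrc1, 36 and 9 bases before the shown start of Klrc2 (76 and 49 bases before its other RefSeq start) and 129 bases before that of Klrk1. They were also found 89 bases before the start of Klrb1c, and 229 bases before 1 of the 2 starts of Klre1, and not in the window of Hcst. On both strands, 14.0% of the 32817 promoter windows of this length hold these letters. The letters GGTGTGA of T-box factors, TTCNNNGAA of STAT factors and TGANTCA of AP-1, which 3.33%, 7.01% and 6.75% of windows hold, were in none of the 8 windows of these 6 genes. A match in these windows is a description of the letters and not a binding site. The promoter windows of Klrc1 and Klrc2 could be aligned over only 60 bases, with 65.0% identity.

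Of the 8 genes, Klrd1, Klrc1, Klrk1 and Hcst had at least 2 CPM in at least 4 libraries and were tested among 12700 genes, and the other 4 were below this filter. All 4 had a higher fitted level in the libraries labelled Alox15-/-, with a median log2 fold change of 1.21 against -0.0075 over all genes tested. Since the genes were chosen with earlier results of these data known, this contrast is a description and not a test. Klrc1 and Klrd1 passed an adjusted p of 0.05 in edgeR's quasi-likelihood test with Benjamini–Hochberg adjustment, whereas Klrk1 and Hcst did not. Over all genes tested, 1.05% were called higher in the libraries labelled Alox15-/- in this test, which amounts to 133 genes. In 2 of the 4 tested genes, Klrd1 and Hcst, every library labelled Alox15-/- lay above every WT library, as was so for 2.74% of the genes tested. Klrc1 reached 2 CPM, before scaling, in all 4 libraries labelled Alox15-/- and in 0 of the WT libraries, so it came through the filter by the group in which it was high and had to differ. Klrk1, Klrd1 and Hcst reached it in all 8 libraries.

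**Figure D1:**
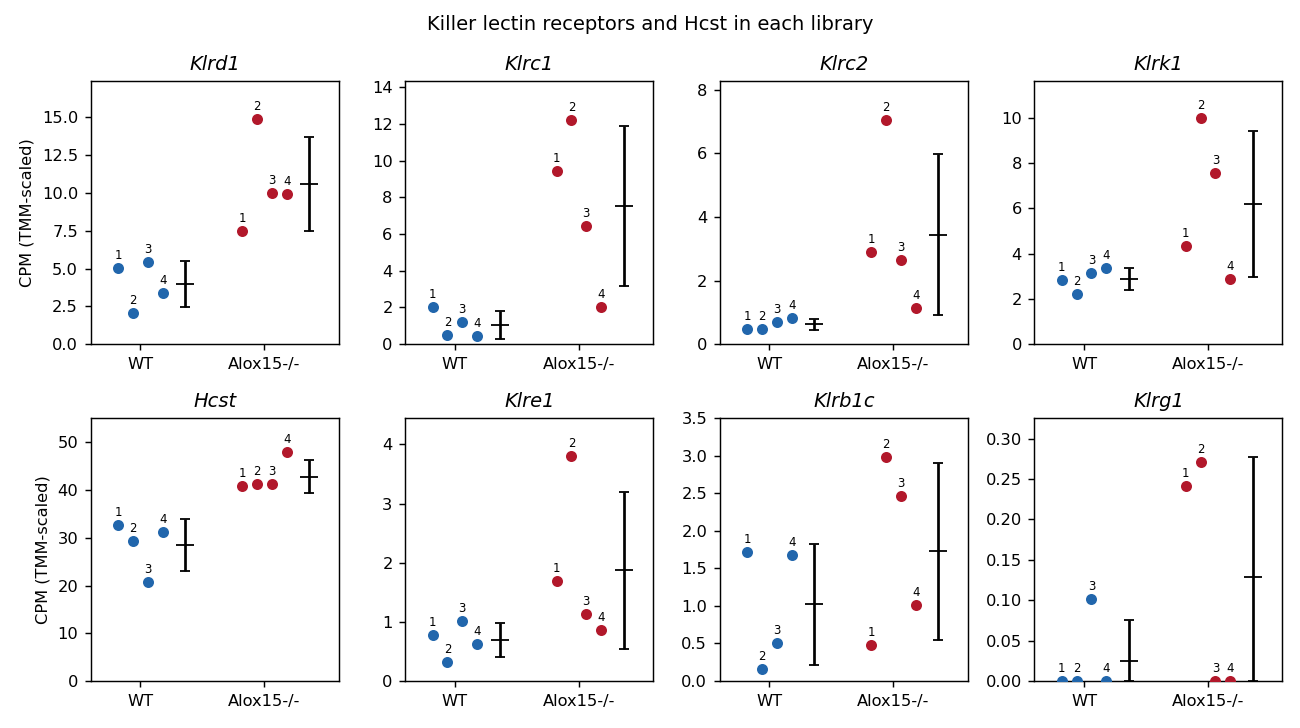
CPM after TMM scaling (y axes, a scale for each gene) of the 8 genes in the WT (blue) and Alox15-/- (red) libraries, numbered by replicate, with the mean and SD (n = 4, bars ended at 0) beside each group. The groups are apart for Klrd1, Klrc2 and Hcst, Klrc1 overlaps through Alox15-/- replicate 4 at 2.01 and WT replicate 1 at 2.04 CPM, and Alox15-/- replicate 2 is the highest library in every panel but that of Hcst.

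Klrd1, the CD94 chain shared by the NKG2A and NKG2C receptors, had 31, 55, 53 and 69 counts in replicates 1 to 4 of the libraries labelled Alox15-/- and 32, 13, 54 and 16 in the WT libraries. Scaled to library size these were 7.48, 14.9, 10.02 and 9.93 CPM against 5.02, 2.08, 5.45 and 3.36 CPM. The lowest library labelled Alox15-/- was thus above the highest WT library, while WT replicates 2 and 4 were the lowest of the 8. The mean was 10.6 ± 3.12 CPM (SD, n = 4) against 3.98 ± 1.55 CPM (SD, n = 4), and edgeR's fitted log2 fold change was 1.36 (SE 0.29, edgeR adjusted p = 0.0278), or 2.57-fold. The fold change kept its direction whichever library was left out, between 1.15 and 1.58 on the log2 scale, but the adjusted p rose to 0.130 without Alox15-/- replicate 2, 0.0914 without replicate 3, 0.0660 without replicate 4, 0.0610 without WT replicate 1 and 0.0843 without WT replicate 2, and the threshold was passed in 3 of 8 such fits. With the replicate number as a block the edgeR adjusted p was 0.0641.

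Klrc1, the inhibitory NKG2A chain, had the largest fold change of the 4 tested genes. It had 39, 45, 34 and 14 counts in the libraries labelled Alox15-/- and 13, 3, 12 and 2 in the WT libraries, which made 9.41, 12.2, 6.43 and 2.01 CPM against 2.04, 0.48, 1.21 and 0.42 CPM. Replicates 1 to 3 labelled Alox15-/- were well above all WT libraries, and replicate 4 fell just below WT replicate 1. The mean was 7.52 ± 4.36 CPM (SD, n = 4) against 1.04 ± 0.758 CPM (SD, n = 4), and edgeR's fitted log2 fold change was 2.71 (SE 0.53, edgeR adjusted p = 0.0159), or 6.53-fold. The adjusted p was 0.0911 with limma-voom, 0.0610 with the robust fit of edgeR and 0.0681 without WT replicate 2. Whichever library labelled Alox15-/- was left out, the gene was no longer above the filter, and with the filter removed its log2 fold change stayed between 2.35 and 3.13 over the 8 fits that leave out a library.

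Klrc2, the activating NKG2C chain, showed the same order of groups at fewer counts. It had 12, 26, 14 and 8 counts in the libraries labelled Alox15-/- and 3, 3, 7 and 4 in the WT libraries, or 2.90, 7.06, 2.65 and 1.15 CPM against 0.470, 0.480, 0.706 and 0.839 CPM. No WT library reached the lowest library labelled Alox15-/-, and the means were 3.44 ± 2.53 CPM (SD, n = 4) and 0.624 ± 0.180 CPM (SD, n = 4). Since 3 libraries reached 2 CPM, the gene was fitted only without the filter, where 1.06% of 28239 genes were called higher in the libraries labelled Alox15-/-. In that fit its log2 fold change was 2.32 (SE 0.48, edgeR adjusted p = 1.76e-04), a fitted fold of 4.99. The fit without the filter gave each gene no spread of its own (infinite prior degrees of freedom, against 8.99 with the filter), and the adjusted p of Klrc2 was 0.0102 with DESeq2, 0.160 with limma-voom and 0.113 by edgeR without Alox15-/- replicate 2, which held 26 of the 60 counts of that group.

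The tags of Klrc1 and Klrc2 can be hard to tell apart, because the last 500 bases of their annotated transcripts share 97.3% of 403 aligned bases and an unbroken run of 128 bases. Klrc3, whose counts were not analysed here, shares a run of 80 bases with Klrc1 and of 108 bases with Klrc2. How reads that fit several genes were counted is not given in the sources used here, so the split between Klrc1 and Klrc2 is uncertain. Their sum does not depend on how reads were divided between this pair, although reads shared with Klrc3 could still alter it. Klrc1 and Klrc2 together came to 12.3, 19.3, 9.08 and 3.17 CPM in the libraries labelled Alox15-/- and 2.51, 0.961, 1.92 and 1.26 CPM in the WT libraries, which do not overlap, and the means were 11.0 ± 6.71 and 1.66 ± 0.692 CPM (SD, n = 4 each). Klrc1 held 132 of the 192 counts of the pair in the libraries labelled Alox15-/-, or 68.8% (95% Wilson interval 61.9 to 74.9, for counting error only), and 30 of 47 in WT, or 63.8% (49.5 to 76.0). In single libraries the share ran from 63.4 to 76.5% and from 33.3 to 81.2%. These shares are given as a description and carry no comparison of the inhibitory with the activating chain. The last 500 bases of Klrd1, Klre1 and Klrk1 share no run longer than 12 bases with each other or with those of the Klrc genes.

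Klrk1, the NKG2D receptor, did not pass the test. It had 18, 37, 40 and 20 counts in the libraries labelled Alox15-/- and 18, 14, 31 and 16 in the WT libraries, or 4.35, 10.04, 7.56 and 2.88 CPM against 2.82, 2.24, 3.13 and 3.36 CPM. Replicates 1 to 3 labelled Alox15-/- were above all WT libraries, whereas replicate 4 lay among them. The mean was 6.21 ± 3.22 CPM against 2.89 ± 0.483 CPM (SD, n = 4 each), with a log2 fold change of 1.06 (SE 0.35, 95% interval 0.365 to 1.75) and an edgeR adjusted p of 0.324. None of 17 alternative settings called it, with adjusted p between 0.0515, in the edgeR fit with no filter, and 0.739, in the edgeR fit without Alox15-/- replicate 2.

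Hcst, which encodes DAP10, the adaptor that carries the signal of NKG2D, had the most counts of the 8 genes. The libraries labelled Alox15-/- had 169, 152, 218 and 333 counts and the WT libraries 208, 183, 205 and 149, which became 40.8, 41.3, 41.2 and 47.9 CPM against 32.6, 29.3, 20.7 and 31.3 CPM after scaling. The groups did not overlap, and the means were 42.8 ± 3.41 and 28.5 ± 5.37 CPM (SD, n = 4 each). The log2 fold change of 0.60 (SE 0.15), or 1.52-fold, missed the threshold with an edgeR adjusted p of 0.0650. It was called in 3 of 17 alternative settings, namely by DESeq2 (adjusted p 0.0188), by edgeR with no filter (0.00682) and by edgeR without WT replicate 4 (0.0455), and its log2 fold change ranged from 0.47 to 0.68. The 3′ end of Hcst faces that of Tyrobp on chromosome 7 (chr7:30413760-30417585, plus strand) with 126 bases between the genes, and strand use in counting is not given in the sources used here.

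Klre1, which pairs with the products of Klri1 and Klri2, had 33 counts over the libraries labelled Alox15-/- and 20 over the WT libraries, between 0.863 and 3.80 CPM and between 0.320 and 1.01 CPM. The groups overlapped, and without the filter its log2 fold change was 1.24 (SE 0.54, edgeR adjusted p = 0.522). Klrb1c, the NK1.1 antigen, had 33 and 25 counts in the 2 groups, with 0.483 to 2.99 CPM against 0.160 to 1.72 CPM. Its log2 fold change of 0.78 (SE 0.51, edgeR adjusted p = 0.768 without the filter) was within the spread between libraries. Klrb1c also overlaps Gm44511 on the same strand, so tags of these genes may have been assigned to either, and Gm44511 had a log2 fold change of 0.65 (edgeR adjusted p = 0.690). Klrg1 had 2 counts in all libraries labelled Alox15-/- and 1 in all WT libraries, so that no difference could be detected at this depth and no fold is given.

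**Figure D2:**
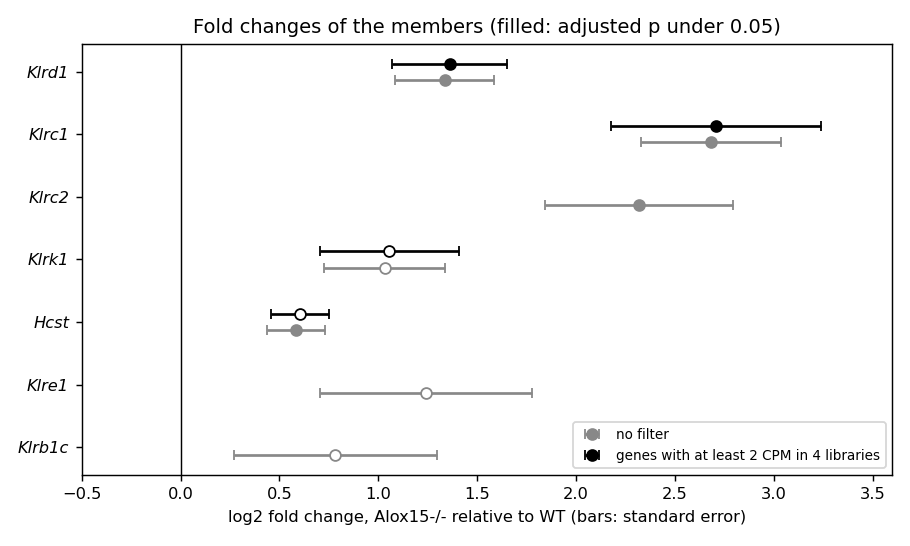
Log2 fold change, Alox15-/- relative to WT (x axis), with its standard error (bars, 4 libraries a group) for the 7 genes with enough counts, from the edgeR fit of genes with at least 2 CPM in 4 libraries (black) and from the fit without a filter (grey), filled where the adjusted p is under 0.05. All fitted values are above 0, from 0.58 for Hcst to 2.71 for Klrc1, and the bars of Klrc1 do not reach those of Klrd1, Klrk1 or Hcst.

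Across libraries, Alox15-/- replicate 2 was the highest of all 8 for 6 of the 7 genes other than Klrg1, and the exception was Hcst, which was highest in replicate 4. Replicate 4 was the lowest of the libraries labelled Alox15-/- for Klrc1, Klrc2, Klrk1 and Klre1, and replicate 1 for Klrd1, Hcst and Klrb1c. By the mean absolute difference of centred log2 CPM over the 8 libraries, Klrd1 and Klrk1 were the most alike of the 4 tested members (0.383), and Hcst and Klrc1 the least alike (1.10). By likeness to Klrd1, Klrk1 ranked 48, Hcst 449 and Klrc1 9636 among the 12700 genes tested. By likeness to Klrk1, Klrd1 ranked 127, Hcst 1742 and Klrc1 12371. By likeness to Klrc1, Klrd1 ranked 57, Klrk1 78 and Hcst 490, whereas by likeness to Hcst, Klrk1 ranked 11772, Klrd1 11991 and Klrc1 12660. The difference is not scaled for the size of a gene's change, so the ranks depend on the gene they start from. They do not measure a shared pattern alone. Among all genes tested, the 3 most like Klrc1 were Slc7a8, Fgl2 and Fcer1g (differences of 0.314, 0.421 and 0.440), and those most like Klrd1 were Atp8b4, Ecm1 and Itga2b (0.202, 0.211 and 0.235). Klrk1 was most like Adgrg3, Btk and Gm20547 (0.149, 0.187 and 0.212), and Hcst most like Zswim7, Gm5915 and Gm8185 (0.114, 0.116 and 0.123). These are descriptions over 8 libraries that share their scaling, with no test.

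Marker genes of other cell types were set beside the receptors. The summed CPM of 12 NK cell markers that are not among the 8 genes, 7 of which also stand in the lists of other receptors, adaptors, transcription factors or granule proteins, was 99.2, 106, 93.4 and 52.1 in the libraries labelled Alox15-/- and 65.2, 45.6, 35.2 and 62.3 in WT. Among the libraries labelled Alox15-/- it was again highest in replicate 2 and lowest in replicate 4, while WT replicate 3 was the lowest of all 8. The groups overlapped, and 0 of the 6 markers tested passed the threshold with edgeR, 4 of them having an unadjusted p under 0.05, while DESeq2 called Ccl5 and Xcl1, limma-voom Xcl1, and edgeR without the filter Ccl5, Nkg7 and Xcl1, all higher. Ncr1, the NKp46 receptor that defines NK cells, was near 0 in both groups, at no more than 1.26 CPM, with 3, 1, 2 and 0 counts in the libraries labelled Alox15-/- and 0, 0, 4 and 6 in WT. Of the γδ T cell markers, all 4 tested were called higher by edgeR, against 1.05% of all genes tested. These were the constant-region genes Trdc (by 1.82), Tcrg-C1 (2.10), Tcrg-C2 (1.31) and Tcrg-C4 (1.90 on the log2 scale). The listed markers under the filter went both ways. Sox13 had 3 counts in the libraries labelled Alox15-/- and 12 in WT, Trgv2 had 1 and 3, and Cd163l1 had 9 and 1. Trdv4 was not analysed. The sum of the list was likewise highest in replicate 2 and lowest among the libraries labelled Alox15-/- in replicate 4. The sum of the 3 markers of CD8 and NKT cells was on the lower side in the libraries labelled Alox15-/-, with 12.7 to 22.2 CPM against 21.6 to 32.3 CPM, and 0 of its 2 tested genes were called by edgeR, DESeq2 or limma-voom, both with an unadjusted p under 0.05 in edgeR, which without the filter called Cd8b1 lower (adjusted p = 0.0430). The part of these cells in the levels of the killer lectin receptors was not tested.

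**Figure D3:**
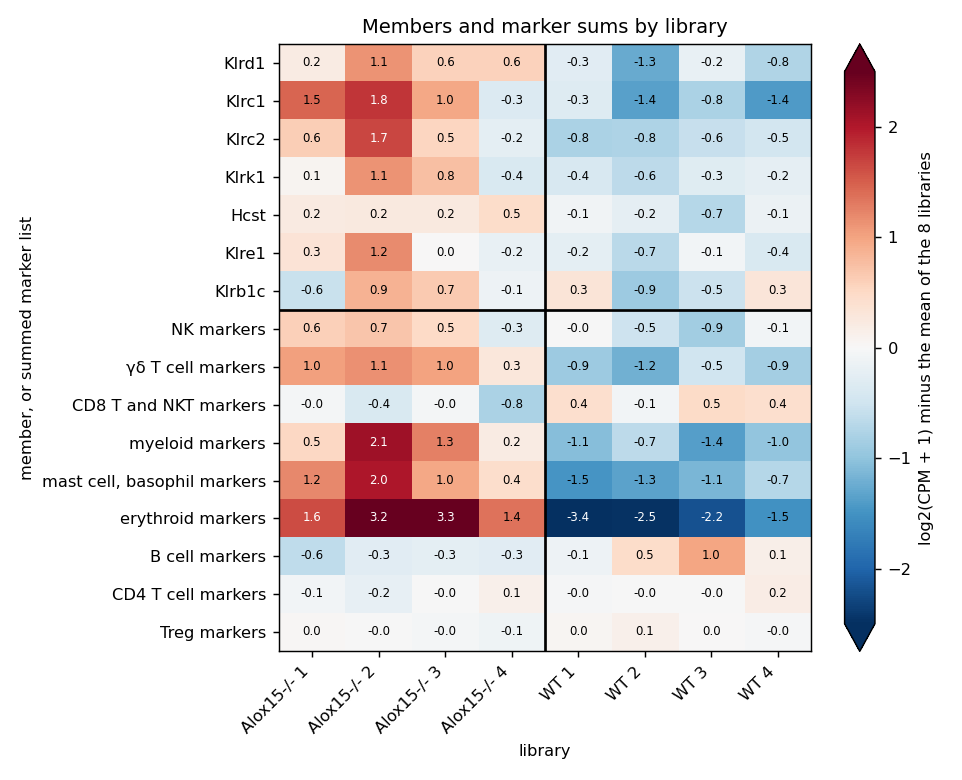
Log2(CPM + 1) minus the mean of the 8 libraries (colour and printed value) for 7 of the genes (upper rows) and for the summed CPM of marker lists (lower rows), with a column for each library. Alox15-/- replicate 2 is high for most receptors and for the NK, γδ T cell, myeloid, mast cell and erythroid sums, whereas the CD4 T cell and Treg sums stay near 0 in all columns.

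Genes around the receptors were mostly not called. From Klrb1a to Klra2, over 2.64 Mb of chromosome 6 (chr6:128609227-131247362), the annotation has 120 genes, of which 65 were listed in the table and 11 were tested, and the 2 called were Klrd1 and Klrc1. Of the 8 tested genes outside the group of 8, edgeR, DESeq2 and limma-voom called 0, with 0 at an unadjusted p under 0.05 in edgeR. Of these, 5 had a log2 fold change above 0, and the median over the 8 was 0.112. Gabarapl1, an autophagy gene at -58.6 kb from the start of Klrd1, had a log2 fold change of 0.02 (edgeR adjusted p = 0.988), and Cd69, an early activation antigen of T cells, one of -0.03 (edgeR adjusted p = 0.992). A further 51 listed genes of the complex that are not among the 8 were under the filter, and in the fit without it edgeR called 1 of them. This was Clec7a, which encodes the β-glucan receptor Dectin-1 of myeloid cells and lies at -130.0 kb from the start of Klrd1. It had 5, 36, 21 and 8 counts in the libraries labelled Alox15-/- and 4, 2, 3 and 0 in WT, again with replicate 2 the highest, and the groups did not overlap. Its log2 fold change without the filter was 3.43 (SE 0.52, edgeR adjusted p = 8.61e-09), above that of every receptor, with an adjusted p of 8.26e-04 by DESeq2 and 0.0974 by limma-voom. Without Alox15-/- replicate 2 it was 2.58 (edgeR adjusted p = 0.00415). Of 20 other killer lectin receptor genes fixed as a list, 17 were listed, 0 reached the filter, and the highest value in any library was 2.90 CPM (Klra7). Their sum was 5.90 to 14.9 CPM in the libraries labelled Alox15-/- and 5.45 to 8.18 CPM in WT, which overlap, and 0 were called by edgeR without the filter. Klri1 and Klri2, the partners of Klre1, had 2 and 19 counts in the libraries labelled Alox15-/- and 3 and 22 in WT. Counts of Klrc3, Klrb1b and Klrh1 were not analysed here.

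**Figure D4:**
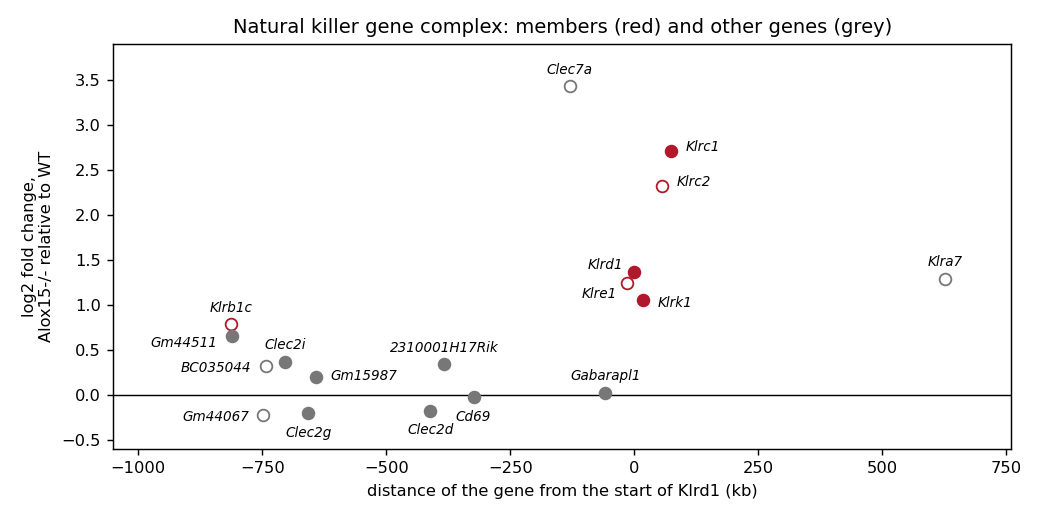
Log2 fold change, Alox15-/- relative to WT (y axis), against distance from the start of Klrd1 in kb (x axis) for 6 of the genes (red) and other genes of the NK gene complex (grey), filled where tested and open where under the filter and fitted without it, the open grey points being the 4 genes with at least 53 counts in all, as many as Klre1. The 5 red points around Klrd1 lie between 1.06 and 2.71, Clec7a lies above them at 3.43, and Gabarapl1, between Clec7a and Klre1, lies at 0.02.

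On the ligand side, no gene was called by edgeR among the genes above the filter with all libraries. H2-T23, which encodes the Qa-1 ligand of the CD94 receptors, had 108 to 125 CPM in the libraries labelled Alox15-/- and 87.2 to 104 CPM in WT, which do not overlap, and a log2 fold change of 0.26 (edgeR adjusted p = 0.494). Of the NKG2D ligands, Ulbp1 and Raet1e were tested, with log2 fold changes of 0.03 and -0.24 (edgeR adjusted p = 0.988 and 0.826). Cdh1, E-cadherin and a ligand of KLRG1, had 4.34 to 5.31 CPM against 0.839 to 2.82 CPM, a log2 fold change of 1.34 and an edgeR adjusted p of 0.0619. DESeq2 called it, as did edgeR without the filter (adjusted p = 0.0161) and without WT replicate 3. Of the 4 ligands tested, 2 had an unadjusted p under 0.05, limma-voom called 0, and the list had a median of 0.145 on the log2 scale. Among the Clec2 ligands of NKR-P1 receptors and Cd69, 4 were tested and 0 were called by edgeR, DESeq2 or limma-voom, with 0 at an unadjusted p under 0.05 and a median of -0.102.

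Behind the receptors, 2 of 14 tested adaptors and signalling proteins were called, both higher, against 1.05% of all genes tested. Tyrobp, the DAP12 adaptor of NKG2C and of mouse NKG2D and of many myeloid receptors, had 8.93, 17.9, 14.8 and 6.47 CPM in the libraries labelled Alox15-/- and 1.57, 1.44, 0.908 and 2.10 CPM in WT. The groups were apart, with a log2 fold change of 3.03 (SE 0.37, edgeR adjusted p = 2.38e-04). Tyrobp reached 2 CPM in 4 libraries labelled Alox15-/- and 1 WT library, so it came through the filter mainly by the group in which it was high. With at least 10 counts in every library it was not tested. Fcer1g, the Fc receptor γ chain that is also much used by myeloid cells, mast cells and basophils, had a log2 fold change of 2.35 (edgeR adjusted p = 0.00129). The other 12, which include Zap70 and Syk, were not called. Of the 14, 3 had an unadjusted p under 0.05, the third being Lcp2, the adaptor SLP-76, which had a log2 fold change of -0.25 (edgeR adjusted p = 0.574) and lay lower in every library labelled Alox15-/- than in WT. On the log2 scale the median of all 14 was -0.0765 against -0.0075 over all genes tested. Of the 3 phosphatases that inhibitory receptors recruit, Ptpn6, Ptpn11 and Inpp5d, 0 were called by edgeR, DESeq2 or limma-voom, and 0 had an unadjusted p under 0.05. Tyrobp and Fcer1g were called without Alox15-/- replicate 2 as well.

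Of the transcription factors of the NK and cytotoxic programme, 9 were tested and 0 were called by edgeR, DESeq2 or limma-voom, with 3 at an unadjusted p under 0.05 and a median of 0.0282. Those 3 were Eomes, Ikzf3 and Gata3, with log2 fold changes of 0.66, 0.47 and -0.34 (edgeR adjusted p = 0.591, 0.560 and 0.518), and Gata3, the factor of Th2 cells, was called by edgeR without Alox15-/- replicate 1. Tbx21, which encodes T-bet, had a log2 fold change of 0.36 (edgeR adjusted p = 0.869). Of the granule proteins, 3 of 7 tested were called, all higher, against 1.05% of all genes tested. The list median was 0.666 against -0.0075 over all genes tested. Without the filter edgeR called 5 of 10, adding Nkg7 and Srgn, and without Alox15-/- replicate 2 it called 0 of 5 tested. Among the fits that leave out a library, Srgn was called without WT replicate 4 and Nkg7 without Alox15-/- replicate 4. Gzmb, the protease granzyme B, had 10.6, 16.6, 7.75 and 4.46 CPM in the libraries labelled Alox15-/- and 1.10, 1.28, 1.71 and 1.47 CPM in WT, with no overlap and a log2 fold change of 2.74 (SE 0.39, edgeR adjusted p = 0.00105). Gzmc, another granzyme, and Cst7, the protease inhibitor cystatin F, had log2 fold changes of 2.46 and 1.47 (edgeR adjusted p = 0.0154 and 0.0238). Gzmb and Gzmc reached 2 CPM in 4 libraries labelled Alox15-/- and 0 WT libraries, so, like Klrc1, they came through the filter by the group in which they were high. The order of libraries for Gzmb, with replicate 2 highest and replicate 4 lowest of those labelled Alox15-/-, was also that of Klrc1 and Klrc2. Gzmb and Gzmc fell under the filter whichever library labelled Alox15-/- was left out. Gzmc was not called without WT replicate 1 or 2 either, and Cst7 was called by edgeR only without Alox15-/- replicate 4 or WT replicate 4 among the fits that leave out a library.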

How the data were processed

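RNA of 4 Treg samples labelled Alox15-/- and 4 labelled WT was measured on day 2. The deposited values are counts for each gene symbol that the authors made by MACE-seq from cleaned and trimmed reads and did not normalize. The submitters' processing notes name Bowtie, edgeR and GRCm38, and settings, counting tool, strand use and duplicate removal are not given in the sources used here. The labels name a small RNA kit and the study's methods the MACE-Seq Kit. Depth per library was 3723151 to 9538962 counts, which limits the precision of genes with few counts.

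Samples were grouped by their genotype label and table columns matched by name. Genes reaching 2 CPM in 4 or more libraries were tested with the two-sided quasi-likelihood test of edgeR 4.0.16 (R 4.3.3), TMM scaling and the group as the only term, with Benjamini–Hochberg adjustment over 12700 genes at 0.05. The 4 members under the filter were taken from the same fit without it. CPM in the text are TMM-scaled, and SE is the log2 fold change over the root of F. Steps were tested on simulated data. Named are the 8 members, called members of hand-written pathway lists, Alox15, and the 3 genes most like each tested member. Called members of the marker lists are named for the γδ T cell and B cell lists and given as counts for the erythroid, mast cell and myeloid lists. Gm44511, Gabarapl1, Clec7a, Cd69 and the uncalled list genes with values were named after their values were seen. Members and lists were chosen with earlier results of these data known.

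Alternatives were 2 other scalings, 3 other filters, DESeq2 1.42.0, voom of limma 3.58.1, edgeR's robust fit, the replicate number as a block and each library left out. Sequences came from RefSeq (GRCm38.p6) and positions and transcript ends from GENCODE M21. Ends and promoters were aligned with Biopython 1.88, and figures drawn with matplotlib 3.10.9 in Python 3.11.15. Promoters of 6 of the 8 genes matched by symbol (not Klrd1 and Klrg1). Protein sequences and counts of Klrc3 were not analysed here.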

Additional observations from a re-analysis of the deposited data

Results flagged for a closer look

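Within groups of 4 libraries, 16 were examined for a library that stood far from the other 3, and chance flags about 1 in 20 such groups. Hcst in the libraries labelled Alox15-/- was flagged because replicate 4, at 47.9 CPM, lay above the other 3 libraries, the nearest of which was at 41.3 CPM. Without it the log2 fold change of Hcst was 0.54 (edgeR adjusted p = 0.253). Klrg1 in the WT libraries was flagged because replicate 3, at 0.101 CPM, was the only one above 0, and this value is 1 count.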

How the results depend on the processing

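None of the 7 members with a fold change reversed under any alternative run, and Klrg1 had too few counts for one. The number of members past the threshold was 2 and within 1.5 times of that under 6 of 17 alternatives, with 3 by DESeq2 (Hcst added), 4 with no filter (Klrc2, Hcst, Klrc1, Klrd1), 1 with at least 10 counts in every library, limma-voom or the robust fit (Klrd1 each time), and 0 to 3 when a library was left out, with 0 without Alox15-/- replicate 2, 3 or 4 or WT replicate 2. Calls among the pathway lists were 5, with 8 under no filter, 2 with at least 10 counts in every library, and 2 to 6 with a library left out. Calls among all genes were 158, with 388 under no filter, 100 with at least 10 counts in every library, and 86 to 172 with a library left out. Klrc1 had no value with at least 10 counts in every library, where it was not tested. A pairing by replicate number was not shown, although the correlations used here cannot exclude a shared batch. Same-numbered libraries had correlations of their deviations from the group means of 0.0691, 0.165, -0.178 and -0.0177. Alox15-/- replicate 2 correlated best with WT replicate 2, but not every library correlated best with its own number. With the replicate block 1 member (Klrc1) was called and Klrd1 was not (log2 fold change 1.38, edgeR adjusted p = 0.0641), with 5 calls among the pathway lists and 146 among all genes. For Klrc2, Klre1, Klrb1c, Klrc1 and Clec7a the alternatives without the filter were chosen after seeing the data. Klre1 and Klrb1c were called under 0 of 14 alternatives, with log2 fold changes of 0.69 to 1.55 and 0.44 to 1.21. Depth limited Klrg1, Klre1, Klrb1c and Klrc2, with at most 60 counts per group.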
